A study of Mus musculus and synthetic construct with 21 samples.

Results

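The elements described here are reporter oligos in which DNA motifs were exchanged between 25 mouse genomic sites, made in 2 forms named bound5 and bound0. They were chosen by name from the deposited tables of pool 2, by pairing each bound5 element with the bound0 element that carries the same 2 site numbers. This gave 625 pairs, or 1250 of the 1350 elements of pool 2, and 600 of the pairs joined a site to the motif of another site while 25 joined a site to its own motif. Among the names, 8 carry the added word mod, 5 of bound5 and 3 of bound0, and were paired in the same way. The names do not spell out what 5, 0 or mod stand for.

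The series, with 21 samples, measured enhancer activity of 7 reporter pools in 3T3-L1 cells, a mouse pre-adipocyte line that becomes adipocyte-like when induced. Some of its samples are PPARγ ChIP, input or barcode libraries, which were not used here. Per the labels, confluent cells received 1 µM dexamethasone, 1.7 µM insulin and 0.5 mM of the phosphodiesterase inhibitor IBMX, and RNA was taken 16 h after transfection. Activity was thus read from transfected plasmids and not at the genomic sites. Bound5 and bound0 elements were in the same transfected pool, so that both were read from 1 RNA library of induced 3T3-L1 cells and 1 library of the plasmid DNA. Neither library had a replicate, and the p-values below describe spread over sites, motifs or barcodes, not over cultures.

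PPARγ, a nuclear receptor, is the main regulator of adipocyte differentiation. It binds DNA together with RXR at a direct repeat of the half-site AGGTCA with 1 base between the repeats, called DR1, in which PPARγ holds the upstream half-site and RXR the downstream one. Bases just upstream of the repeat also contact PPARγ. In a massively parallel reporter assay each element drives a transcript with its own barcodes, and a barcode's RNA reads are set against its reads in the plasmid library.

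In each name the first number, with its coordinates, was read as the site that supplies the surrounding sequence and the second as the source of the motif. The elements of the same sites in pool 1, read from other libraries, allowed a check of this. Native activity of a site in pool 1 had r = 0.815 and rho = 0.784 with the mean of the foreign bound5 elements that share its first number, and r = 0.315 and rho = 0.195 with those that share its second number (n = 25 sites). For bound0 elements r was 0.852 and rho 0.792 by the first number, and r 0.275 and rho 0.205 by the second. These are descriptions across sites, whose elements share their surroundings or motif between pools.

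The motifs of the 25 sites are 16 bases long, as spelled in the element names. They hold 3 bases upstream of the repeat and then the repeat itself, in which 2 to 5 of the 12 half-site bases differ from AGGTCA. Below are the motifs around which the results turn, with capitals on half-site bases that match AGGTCA. Coordinates are of mm9, counted from 1, and no gene annotation of that build was used. The first set holds the 5 motif sources that were lowest in bound5 relative to bound0.

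Motif 227 (chr4:59598224-59598239, plus strand): accAGGcaAagGGgCA
Motif 509 (chr9:55101544-55101559, plus strand): tcaAaGcCAaAGGTgA
Motif 246 (chr6:24582318-24582333, plus strand): tgtgGGgCAaAGGgtA
Motif 360 (chr5:30496954-30496969, minus strand): actAGGTtAaAGGTaA
Motif 92 (chr11:69475160-69475175, minus strand): accAGGTCAaAGaTtc

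The second set holds the 5 motif sources that were highest in bound5 relative to bound0, although none of the 5 passed the test.

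Motif 211 (chr7:137517926-137517941, plus strand): atcAtGTCAaAGtgCA
Motif 199 (chr3:41089098-41089113, plus strand): acatGcaCAaAGGTCA
Motif 39 (chr1:157643103-157643118, plus strand): ttggGGTgAgAGGTgA
Motif 539 (chr12:56575162-56575177, minus strand): tttAGGgCAaAGagCA
Motif 142 (chr3:30881176-30881191, plus strand): tctgGGcaAaAGGgtA

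Activity is given throughout as log2 of RNA over plasmid counts, after adding 1 to each and dividing by the total of the library, as the median over an element's barcodes with at least 20 plasmid counts. A difference is bound5 minus bound0 of the same pair, so that -1 means a 2-fold lower activity in bound5. Of the 1250 elements 1237 kept all 20 barcodes, and the fewest kept was 11. There were 17716666 counts in the RNA library and 46101162 in the plasmid library. Bound5 elements had a median of 31319 plasmid counts and bound0 elements of 33484, and no element had fewer than 770. Barcodes of an element had a median SD of 0.93 in bound5 and 0.90 in bound0.

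Between the forms of a site with its own motif, no difference passed the test. Own-motif elements averaged -0.37 in bound5 and -0.48 in bound0, a difference of 0.11 ± 0.29 (SD, n = 25 sites; higher at 17 and lower at 8; sign-flip permutation p = 0.0604, adjusted p = 0.0604 over the 6 summary comparisons made here). Their differences ran from -0.51 at site 539 to 0.76 at site 211, with a median size of 0.17. Activity of the 25 own-motif elements in bound5 and bound0 correlated with r = 0.977 and rho = 0.960. None of the 25 own-motif pairs passed a permutation test over barcodes (Benjamini-Hochberg over all 625 pairs), and 0 had an unadjusted p under 0.05. These pairs are the control for the rest, since no motif was exchanged in them. The mean own-motif difference was positive at all settings tried. It passed the threshold of 0.05 in 2 of them, with values of 0.13 and 0.20. It also passed when any of 6 single sites was left out, with values of at most 0.14.

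With a foreign motif, bound5 elements were on average less active than bound0 elements, and they differed in both directions from pair to pair. Foreign elements averaged -0.90 in bound5 and -0.66 in bound0, a difference of -0.25 ± 0.43 over site means (SD, n = 25 sites; lower at 19 and higher at 6; sign-flip permutation p = 0.00922, adjusted p = 0.0111). Averaged by motif source the same difference had an SD of 0.31 (n = 25 sources; lower for 20; permutation p = 0.00055, adjusted p = 0.0011). Sites and motif sources are crossed, so neither test includes the spread over the other. Set against the own-motif pair of the same site, the foreign difference was lower, with a gap of -0.36 ± 0.49 (n = 25; lower at 16 and higher at 9; permutation p = 0.00152, adjusted p = 0.00228).

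Single pairs moved far more than this mean. Foreign differences ran from -3.46 to 3.21 with a median size of 0.49, against 0.17 in own-motif pairs. The mean size of a site's foreign differences exceeded that of its own-motif difference by 0.38 ± 0.32 (n = 25; larger at 21; permutation p = 1e-05, the smallest that the permutations can give, adjusted p = 6e-05). Over barcodes 57 of the 625 pairs were higher in bound5, or 9.12%, and 141 were lower, or 22.6%. All 198 calls, 31.7% of the pairs, were foreign pairs, against 0 of 25 own-motif pairs. In 29 foreign pairs bound5 was over 2-fold higher and in 83 over 2-fold lower. Differences computed from 2 separate random sets of 10 barcodes per element correlated with r = 0.681 and rho = 0.605 over the 600 foreign pairs, and with r = -0.127 and rho = -0.0754 over the 25 own-motif pairs. These correlations are within the same 2 libraries and describe barcode error only.

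The highest called pairs involved the surroundings of sites 246, 46 and 685. Site 246 with motif 211 had an activity of 1.47 in bound5, against -1.74 in bound0, which is 9.24-fold higher. Its 20 barcodes ranged from -1.91 to 2.12 in bound5 and from -3.41 to -0.32 in bound0. Site 46 with motif 199 followed, with 1.10 in bound5 and -1.74 in bound0 (difference 2.83). Motif 199 has all 6 bases of the downstream half-site in place and 3 mismatches in the upstream one. Site 685 with motif 39 had 0.81 in bound5 and -1.37 in bound0 (difference 2.18). Here the barcode ranges barely overlapped, at -0.12 to 1.51 in bound5 and -3.97 to -0.01 in bound0. Site 46 with motif 211 (-0.78 and -2.74) and site 46 with motif 322 (-0.20 and -2.15) completed the 5, with differences of 1.96 and 1.95. All 5 had an adjusted p of at most 0.000385 in the permutation test over barcodes, but site 46 with motif 211 was not called in the second random barcode subset (1.92, permutation adjusted p = 0.0765).

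Of the 5 lowest called pairs 2 were at site 322, whose own-motif elements were the most active of the 25 in both forms. Site 322 with motif 509 had -1.33 in bound5 and 2.12 in bound0 (difference -3.46). The barcodes of this pair did not overlap, at -2.93 to 0.01 in bound5 and 1.19 to 2.60 in bound0. Site 322 with motif 413 had -1.61 in bound5 and 1.18 in bound0 (difference -2.79). Site 614 with motif 227 had -1.69 and 1.02 (difference -2.71), and site 413 with the same motif -1.68 and 0.63 (difference -2.31). Site 249 with motif 413 had -2.76 in bound5 and -0.34 in bound0 (difference -2.42). Each had a permutation adjusted p of 0.000149 over barcodes, the smallest reached.

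By surrounding site, 11 of 25 sites (44%) were lower in bound5 over their 24 foreign motifs and 3 (12%) were higher, by sign flips over the pairs with Benjamini-Hochberg adjustment over 25 sites. Site 249 was lowest. Its foreign elements averaged -2.00 ± 0.50 in bound5 and -0.97 ± 0.43 in bound0, a difference of -1.03 ± 0.63 (SD, n = 24 motifs; lower with 23; permutation adjusted p = 5e-05). Its own-motif element had -0.99 and -0.97, so that foreign motifs stood level with its own in bound0 and below it in bound5 at all 24 motifs. In the mut form, in which the motif is read as altered, site 249 had -2.39.

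Site 413 showed a similar course at a higher level. Foreign elements averaged -0.78 ± 0.78 in bound5 and 0.15 ± 0.49 in bound0 (difference -0.93 ± 0.68, lower with 21 of 24). Of the 24, 20 were below the own-motif element in bound5 and 3 in bound0. Site 614 differed by -0.74 ± 0.94 (-0.32 in bound5 and 0.41 in bound0), with single motifs from -2.71 to 1.29. Site 638 differed by -0.67 ± 0.46 (-0.27 and 0.40), lower with 21 motifs. Site 126 differed by -0.62 ± 0.77 (-1.19 and -0.57). There the own-motif element had 0.53 in bound5 and 0.38 in bound0, well above the foreign mean in either form.

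The other 6 sites called lower were 707, 281, 591, 211, 199 and 539, with differences from -0.61 at site 707 to -0.28 at site 539. In the first random barcode subset site 539 was not called (-0.21, permutation adjusted p = 0.0814). At site 707 22 of 24 motifs were lower in bound5.

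The 3 sites called higher were 685, 46 and 246. Site 685 averaged -0.59 ± 0.79 in bound5 and -1.17 ± 0.43 in bound0 (difference 0.58 ± 0.62, higher with 21 of 24; permutation adjusted p = 0.00075). Its own-motif element had -0.85 and -1.00. Site 46 averaged -0.96 in bound5 and -1.49 in bound0 (difference 0.53 ± 1.10), and its motifs ran from -1.69 to 2.83. Site 246 averaged -0.01 in bound5 and -0.44 in bound0 (difference 0.43 ± 0.91), with motifs from -1.51 to 3.21. The calls at sites 46 and 246 were close to the threshold, both with a permutation adjusted p of 0.0471. Each was lost when any of 15 of the other sites was left out, with an adjusted p of up to 0.0843 at site 46 and 0.0735 at site 246. Both were also lost in the second of 2 random barcode subsets (permutation adjusted p = 0.123 at site 46 and 0.0931 at site 246), and that of site 246 with a count minimum of 100 (permutation adjusted p = 0.0562). The remaining 11 sites were not called, with means from -0.45 at site 322 to 0.17 ± 0.63 at site 142, followed by 0.11 ± 0.63 at site 342. Site 142 was higher with 14 motifs and site 342 with 15.

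By motif source, 9 of 25 motifs (36%) were lower in bound5 over the 24 other sites and 0 (0%) were higher, by the same kind of test. None of the 5 motifs with a positive mean had an unadjusted p under 0.05. Motif 227 fell furthest, to -1.44 ± 1.04 in bound5, against -0.63 ± 1.26 in bound0 (difference -0.82 ± 0.81, n = 24 sites; lower at 22; permutation adjusted p = 0.000333). Counted from the lowest, its level ranked 5 of 25 in bound5 and 9 of 25 in bound0. Over barcodes, 11 of its 24 pairs were called lower and 1 higher.

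Motif 246 had -1.14 ± 1.40 in bound5 and -0.42 ± 1.14 in bound0 (difference -0.71 ± 0.59, lower at 20 sites; permutation adjusted p = 0.000333). It ranked 22 of 25 from the lowest in bound0 and 8 in bound5, and 13 of its 24 pairs were called lower, more than for any other motif. Motif 360, 1 of the 3 motifs closest to the DR1 repeat with 2 mismatches, had -1.16 in bound5 and -0.54 in bound0 (difference -0.62 ± 0.53, lower at 22 sites). Motif 92, whose upstream half-site matches AGGTCA in full, had -1.45 in bound5 and -0.90 in bound0 (difference -0.55 ± 0.84, lower at 17 sites).

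Motifs 509 and 413 gave the lowest activity of the 25 in both forms. Motif 509 had -2.19 ± 0.61 in bound5 and -1.41 ± 1.11 in bound0 (difference -0.79 ± 0.92, lower at 19 sites; permutation adjusted p = 0.000875). Motif 413 had -2.10 ± 0.62 in bound5 and -1.61 ± 1.13 in bound0 (difference -0.49 ± 0.87, lower at 17 sites; permutation adjusted p = 0.0218). In bound5 the 24 sites that carried either motif lay closer together than in bound0, as these SDs show, although the SDs were not tested. The other 3 motifs called lower were 46 (-0.48), 685 (-0.29) and 281 (-0.29). Of these, motif 685 was not called when any of 8 other sites was left out (permutation adjusted p up to 0.0653). Motifs 413, 92, 281 and 685 were not called in the first of 2 random subsets of 10 barcodes per element, with permutation adjusted p of 0.14, 0.0665, 0.0941 and 0.107. Motif 342 had -0.42 ± 0.84 and was not called (permutation adjusted p = 0.0595), but it was called lower with the mean over barcodes (-0.46, permutation adjusted p = 0.0307), with summed barcodes (-0.42, 0.0437), in the second barcode subset (-0.52, 0.0403) and when any of 5 sites was left out.

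Among the motifs not called lower, motif 211 had the highest mean difference. Its level was -0.44 ± 1.37 in bound5 and -0.82 ± 1.33 in bound0 (difference 0.39 ± 1.01; permutation adjusted p = 0.145), higher at 12 sites and lower at the other 12. Over barcodes it was called higher at 8 sites, the most for any motif, and lower at 1. Besides sites 246 and 46, described above, the largest were site 39 (-0.46 in bound5 and -2.25 in bound0) and site 142 (1.66 and 0.05). Motifs 199 and 39 had 0.18 ± 0.89 and 0.15 ± 0.80, each higher at 12 sites. Motifs 539 and 142 had 0.04 ± 0.57 and 0.02 ± 0.80. The means of the other 11 motifs that were not called lower lay between -0.42 and -0.0042.

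Most motifs had calls in both directions, at different sites, though for several a direction rested on 1 call. Of the 25 motifs 19 had at least 1 pair called higher and 1 called lower in bound5, as did 14 of the 25 sites. A direction had only 1 call for motifs 211, 227, 246, 281, 342, 591 and 685. The same held at sites 39, 126, 227, 322, 342, 413, 591, 614 and 705. The higher calls at site 92 (motifs 199 and 249) and at site 591 (motif 142) each involved a mod element in 1 of the forms. Only site 509 had no called pair. At the level of the grid, the surrounding site took 27.9% of the variance of the 625 differences, the motif source 14.8%, and 57.3% was left to the combination of site and motif and to barcode error, where 3.85% would fall to each number by its share of the degrees of freedom. The part left after site and motif means correlated between the 2 random barcode sets with r = 0.521 and rho = 0.465 (n = 625 pairs of the same 2 libraries).

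At most sites activity spread more widely over the motifs in bound5 than in bound0, with the own motif counted among them. Over the 25 motifs of a site the SD had a median of 0.68 in bound5 and 0.45 in bound0, and it was larger in bound5 at 24 of 25 sites. The log2 ratio of the SDs was 0.44 ± 0.46 (n = 25 sites; sign-flip permutation p = 2e-05, adjusted p = 6e-05). The exception was site 509, with 0.22 in bound5 and 0.33 in bound0, whose foreign elements averaged -2.45 in bound5 and -2.38 in bound0. Over foreign motifs alone, the SD was smaller in bound5 also at sites 126 (0.63 against 0.69), 199 (0.45 against 0.48) and 211 (0.419 against 0.421). The test was not repeated without the own-motif element. Over all 25 motifs, SDs by site ran from 0.22 to 1.26 in bound5 and from 0.33 to 0.91 in bound0. In bound5 the SD of a site's motifs went with the activity of its own-motif element (r = 0.706, rho = 0.608, n = 25 sites). In bound0 it did less so (r = 0.207, rho = 0.345, n = 25 sites), with no test of the difference. Each SD includes that own-motif element, so the values correlated here are not independent.

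Site 322 stood apart in this respect. Its 25 elements had an SD of 1.26 in bound5 and 0.34 in bound0, and its own-motif element had 2.39 and 2.65. In bound0 its foreign elements stayed between 1.18 and 2.81, while in bound5 they ran from -1.61 to 3.15. The 5 lowest in bound5 carried motifs 413, 509, 92, 342 and 360, with -1.61, -1.33, -0.04, 0.74 and 0.87, against 1.18, 2.12, 2.21, 2.35 and 1.73 in bound0. Its mut form had 0.58, above the first 3 of these. At the other end, motif 142 had 3.15 in bound5 and 2.65 in bound0, the only motif called higher there. In all 8 of its motifs were called lower over barcodes, although the site mean was not called (-0.45 ± 1.08, permutation adjusted p = 0.0792). It was called lower with the mean over barcodes (-0.50, permutation adjusted p = 0.0373) and with summed barcodes (-0.47, permutation adjusted p = 0.0396).

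The counts of foreign elements below the own-motif element were as follows, with no test of their difference between the forms. Foreign elements were below the own-motif element of the same form in 420 of 600 cases (70.0%) in bound5 and in 344 of 600 (57.3%) in bound0. The 24 foreign elements of a site share 1 own-motif element per form, and that element was itself higher in bound5 by 0.11 on average. At 7 sites all 24 foreign motifs were below the own motif in bound5, and at 2 sites in bound0. Site 249 was among the 7, as described above, and at site 211 the count was 24 of 24 in bound5 and 11 of 24 in bound0. There the own-motif element had -0.75 in bound5 and -1.51 in bound0 (difference 0.76, not called), while the foreign mean was -1.89 in bound5 and -1.52 in bound0. That own-motif element had few counts, with 3972 plasmid and 897 RNA counts in bound5 and 4055 and 665 in bound0. Foreign elements were below the mut form of their site in 117 of 600 cases in bound5 and in 70 of 600 in bound0, with 24 in each form at site 509.

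Levels of the motif sources were related between the forms, and less closely without motifs 413 and 509, more so by r than by rho. Over 25 sources the mean foreign activity in bound5 and bound0 had r = 0.823 and rho = 0.569, and without these 2 motifs r = 0.583 and rho = 0.448 (n = 23). Motif 413 can also be set beside a motif of close sequence and higher level. Among the 25 motifs the closest pair, with 2 differing bases, was formed by motifs 638 and 413.

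Motif 413 (chr14:34124087-34124102, plus strand): agcAaGgCAgAGGgaA
Motif 638 (chr15:96709420-96709435, plus strand): agcAGGgCAaAGGgaA

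Motif 413 carries G5A in the upstream half-site and A10G between the half-sites, relative to motif 638, with positions counted from 1 at the first of the 16 bases. Over foreign sites motif 413 had -2.10 in bound5 and -1.61 in bound0, against -0.52 in bound5 and -0.51 in bound0 for motif 638. Exchanged between these 2 sites, both pairs were lower in bound5, as each site was with 21 of its 24 foreign motifs (means -0.93 at site 413 and -0.67 at site 638). Over its 24 foreign sites motif 638 had a mean difference of -0.01, higher at 12 and lower at 12. Motif 413 had -0.49, lower at 17. Site 638 with motif 413 had -1.74 in bound5 and -0.81 in bound0 (permutation adjusted p = 0.00795 over barcodes), and site 413 with motif 638 had -0.67 in bound5 and 0.96 in bound0 (permutation adjusted p = 0.000149). This pair of motifs was picked for its likeness and after its values were seen. The names spell only 16 bases and do not state whether further bases were exchanged with a motif. Whether the 2 base changes account for the gap in level was not tested.

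Counts of mismatches, of G and C bases and of differing bases had little relation with the difference between the forms. Single positions of the 16 bases were not examined. Across the 25 motif sources the difference had r = -0.168 and rho = -0.222 with the number of mismatches to the half-sites, and r = -0.0526 and rho = -0.0327 with the number of G and C bases. The level of a motif source had r = -0.148 with the mismatches in bound5 and r = -0.0744 in bound0. Across the 600 foreign pairs, the number of bases by which the foreign motif differed from the site's own had r = 0.00676 with the difference and r = 0.0499 with its size. The difference of a pair and that of the pair with both numbers exchanged had r = -0.0533 and rho = -0.0660 (n = 300). A number's difference as a motif source and as a site had r = -0.255 and rho = -0.238 (n = 25). These points share sites and motifs, and no test was made on them.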

How the data were processed

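Reporter activity was measured in 1 RNA library of induced 3T3-L1 cells and 1 plasmid library of pool 2; the RNA and plasmid libraries of pool 1 served to check how the names were read. The deposited values are raw read counts per barcode, 20 barcodes per element in pool 2, per the series' design text and the file headers. The counting tool is not given in the sources used here, and the build is mm9, per the submitters' processing notes. With Python 3.11.15, numpy 2.4.6, pandas 2.3.3 and scipy 1.17.1, log2 ratios of RNA to plasmid counts (pseudocount 1, scaled to 17716666 RNA and 46101162 plasmid counts) were taken for barcodes with at least 20 plasmid counts, which left out 32 of 27000, and the median over barcodes was the activity of an element. The 4 barcodes with 0 RNA counts entered through the pseudocount.

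With no replicate libraries no count model was fitted. Differences were tested with 100000 sign flips over sites, motif sources or pairs, and single pairs with 100000 permutations of barcodes between the 2 elements on the difference of means, all 2-sided. Benjamini-Hochberg adjustment ran over 6 summary comparisons, 25 sites, 25 motif sources or 625 pairs, with a threshold of 0.05. A called pair also had medians on the same side. The effects printed are differences of medians. The procedures were tested on simulated counts.

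The text names the 5 highest and 5 lowest sites, motif sources and called pairs, every other called site and motif source, and, added after their values were seen, site 322, motif 342, motif 638 and further pairs at sites 322, 39, 142, 638 and 413. The members, rules and tests were chosen with earlier results of these data known. Alternatives varied the pseudocount, count minimum, summary over barcodes, barcode subset, scaling, treatment of 0 counts, use of mod elements, location measure, test statistic and set of sites. The remaining files of the series were not used here.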

Additional observations from a re-analysis of the deposited data

Results flagged for a closer look

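The difference between bound5 and bound0 was not the same in foreign and own-motif pairs. It averaged -0.25 in foreign pairs and 0.11 in own-motif pairs, and the difference between these, -0.36 ± 0.49 (n = 25 sites; lower at 16), passed a sign-flip permutation test over sites (adjusted p = 0.00228). It stayed between -0.48 and -0.27 under the other settings tried, with adjusted p between 0.00075 and 0.0209. How far the own-motif difference, which was positive at 17 of 25 sites, contributes was not tested further. No group had the number of samples needed to look for single samples that lie apart.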

How the results depend on the processing

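In all 14 other settings were tried, each on the results it bears on, and each site was left out in turn. All 6 summary comparisons kept their direction. With a count minimum of 100 (0.13, sign-flip permutation adjusted p = 0.0495) and in the first random barcode subset (0.20, permutation adjusted p = 0.04) the own-motif difference passed the threshold, and with each site left out it lay between 0.088 and 0.14. The other 5 stayed past the threshold throughout. With 10 barcodes per element fewer pairs passed, 32 higher and 74 lower in the first subset and 31 higher and 73 lower in the second. The first subset also gave 5 motif sources called lower, and the second 1 site called higher. Over the settings 10 to 14 sites and 5 to 11 motif sources were called lower. When a site was left out the ranges were 10 to 12 sites and 7 to 10 motif sources. Calls that named sites, motifs and pairs lost or gained are given beside those results. Gains by other sites and motifs were not followed. With each site left out, 1 to 3 sites were called higher. Motif 142 had a mean of -0.12 in the second subset and between -0.039 and 0.089 with a site left out, and motif 539 between -0.0045 and 0.095, so neither had a direction. Of the other named sites and motifs none changed direction. No paired analysis was possible because each kind of library was made once, so that there were no replicate libraries to match; bound5 and bound0 elements were matched by name throughout. Median counts per element were high, but the lowest were 770 plasmid and 283 RNA counts. The barcode spread limits single pairs, and p-values cover barcode, site or motif spread only.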
